A study of Mus musculus with 9 samples.

Results

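Antiviral PARPs and *Dtx3l* are described here in bulk RNA-seq of mouse intestinal organoids. The group holds 9 genes of the 54838 listed in each library and was chosen by name, with earlier results of these data known. It comprises 7 genes linked to interferon (*Parp9*, *Dtx3l*, *Parp14*, *Parp10*, *Parp11*, *Parp12* and *Zc3hav1*) together with *Parp1* and *Parp2*, the family members without a known interferon response. The organoids came from C57BL/6 *Vil-CreERT2*;*Mettl3* fl/fl mice, for which the study's methods give an age of 2 to 4 months. *Mettl3* encodes the catalytic subunit of the RNA adenosine methyltransferase, and villin regulatory sequence drives a tamoxifen-activated Cre in the intestinal epithelium. Organoids received EtOH, the vehicle, or 500 nM 4-OHT, the active form of tamoxifen, for 2 days, and DMSO, the other vehicle, or Nec-1, an inhibitor of the kinase RIPK1, for 5 days. The Nec-1 dose is 5 µM in the study's legends and 10 µM in its methods. There are 2 libraries for each group except 4-OHT Nec-1, which has 1. The floxed allele and the Cre were carried by all 4 groups, including the EtOH controls. No 4-OHT library without the floxed allele was analysed here, so deletion of *Mettl3*, Cre activity and 4-OHT itself cannot be told apart.

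PARP enzymes take ADP-ribose from NAD and attach it to proteins or nucleic acids. *Parp1* and *Parp2* encode nuclear enzymes that are activated by DNA breaks and build chains of ADP-ribose. Most of the interferon-linked members attach single units or have lost catalysis, and they act on viral RNA, on translation or on interferon signalling. Interferons switch on their targets through STAT factors and IRF9, and in the gut epithelium this programme serves defence against enteric viruses.

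The values are FPKM, fragments scaled to transcript length and to the mapped fragments of the library. Levels are compared here between genes and between libraries, although some comparisons between libraries changed with the scaling, as given below. FPKM summed to 450207 to 498712 per library, 11559 to 12038 genes reached 1 FPKM, and replicates of a group correlated across genes with Pearson's r of 0.986 to 0.994. The fragment counts behind single values are unknown. *Mettl3* itself went against its label. EtOH libraries gave it 2.70 and 2.71 FPKM with DMSO and 2.41 and 2.47 with Nec-1, and 4-OHT libraries 3.72 and 4.14 with DMSO and 3.36 with Nec-1. The log2 difference between the DMSO groups was 0.41 (SE 0.098, limma adjusted p = 0.0231). A gene-level FPKM does not separate the floxed exons from the rest, and the groups below are therefore the libraries labelled EtOH or 4-OHT. Epithelial markers were abundant (*Epcam* 431 to 609 FPKM), whereas *Ptprc*, the pan-leukocyte marker, stayed at or below 0.0497 FPKM and *Cd3e* and *Adgre1* at or near 0. Of the other immune-list genes, *Itgam* ranged from 0.315 to 2.45 FPKM, *Lyz2* from 0.237 to 2.63 and *Cd68* from 0.774 to 7.72, *Csf1r* reached at most 0.280, and the 3 endothelial markers summed to at most 0.144. Nothing in the labels says that libraries of a group came from separate cultures, so the p-values measure the spread between these libraries, which may be technical.

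All 9 genes were located on GRCm38.p6, the assembly of mm10. *Dtx3l* (chr16:35926515-35939027), *Parp9* (chr16:35938470-35972621) and *Parp14* (chr16:35831892-35871518) are neighbours on chromosome 16. *Dtx3l* and *Parp9* overlap by 558 bases. The library kit named in the labels does not mark strand, so fragments from this stretch could not be assigned to either gene. *Parp12* (chr6:39086412-39118349), *Zc3hav1* (chr6:38305286-38355352) and *Parp11* (chr6:127446830-127514233) lie on chromosome 6 and *Parp10* (chr15:76232995-76243440) on chromosome 15. *Parp1* (chr1:180568891-180600999) and *Parp2* (chr14:50807897-50821301) have a chromosome each.

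Promoter windows from RefSeq, reaching from 250 bases before to 50 bases after an annotated start, were found for 6 members in 7 entries. *Parp9*, *Parp10* and *Parp14* had no entry. Each window was searched on both strands for the core of the interferon-stimulated response element, GAAANNGAAA, and 1131 of all 32851 windows in the table (3.44%) hold it. Of the 7 entries, 1 held a match, the first of the pair for *Parp11*. It is on the reverse strand and begins 44 bases before the start (-44). That window is shown with the match in capitals, beside the window of *Parp12*, the member with the largest difference between the DMSO groups, and that of *Parp2*, a member without a known interferon response. All 3 are written 5′ to 3′ on the strand of the gene. A match is a description of letters, not a binding site.
Parp11, chr6:127446590-127446889, plus strand: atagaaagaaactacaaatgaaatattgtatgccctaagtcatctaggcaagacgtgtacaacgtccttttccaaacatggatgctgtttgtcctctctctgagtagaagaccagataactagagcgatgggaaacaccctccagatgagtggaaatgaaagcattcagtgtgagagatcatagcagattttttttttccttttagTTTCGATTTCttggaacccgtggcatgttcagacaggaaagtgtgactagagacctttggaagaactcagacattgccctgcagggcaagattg
Parp12, chr6:39118300-39118599, minus strand: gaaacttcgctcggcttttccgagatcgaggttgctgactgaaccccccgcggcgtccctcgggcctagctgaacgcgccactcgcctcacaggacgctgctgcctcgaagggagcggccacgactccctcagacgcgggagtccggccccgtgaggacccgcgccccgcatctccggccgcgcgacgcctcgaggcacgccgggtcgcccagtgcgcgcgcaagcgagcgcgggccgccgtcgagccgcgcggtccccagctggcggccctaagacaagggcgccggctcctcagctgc
Parp2, chr14:50807666-50807965, plus strand: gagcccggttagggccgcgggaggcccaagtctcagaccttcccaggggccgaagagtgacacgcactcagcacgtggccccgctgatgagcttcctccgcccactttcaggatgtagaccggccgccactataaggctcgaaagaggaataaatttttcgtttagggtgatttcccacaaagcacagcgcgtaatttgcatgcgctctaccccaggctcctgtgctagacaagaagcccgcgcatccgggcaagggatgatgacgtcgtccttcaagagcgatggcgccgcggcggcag

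The first comparison set 4-OHT DMSO against EtOH DMSO. All 7 interferon-linked genes rose with 4-OHT as labelled, by 2.37-fold for *Zc3hav1* to 17.0-fold for *Parp12* as ratios of mean FPKM, whereas neither *Parp1* nor *Parp2* passed the test. Summed FPKM of the 7 genes was 22.6 and 24.3 in EtOH DMSO and 108 and 124 in 4-OHT DMSO, against 19.7 and 21.8, then 20.7 and 18.5, for *Parp1* and *Parp2* together. The test was limma on log2(FPKM + 1) with adjustment over all 12702 genes that reached 1 FPKM in at least 2 libraries, and a gene was called at an adjusted p under 0.05. All 9 members were tested. *Parp11* reached 1 FPKM only in 4-OHT DMSO, and its entry to the test therefore rested on the group where it was high. Of all genes tested, 24.5% were called higher and 16.7% lower, with a median log2 difference of 0.077, beside 1.94 for the 7 members. Because these are bulk libraries, more RNA per cell and more cells of an expressing type cannot be told apart.

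**Figure D1:**
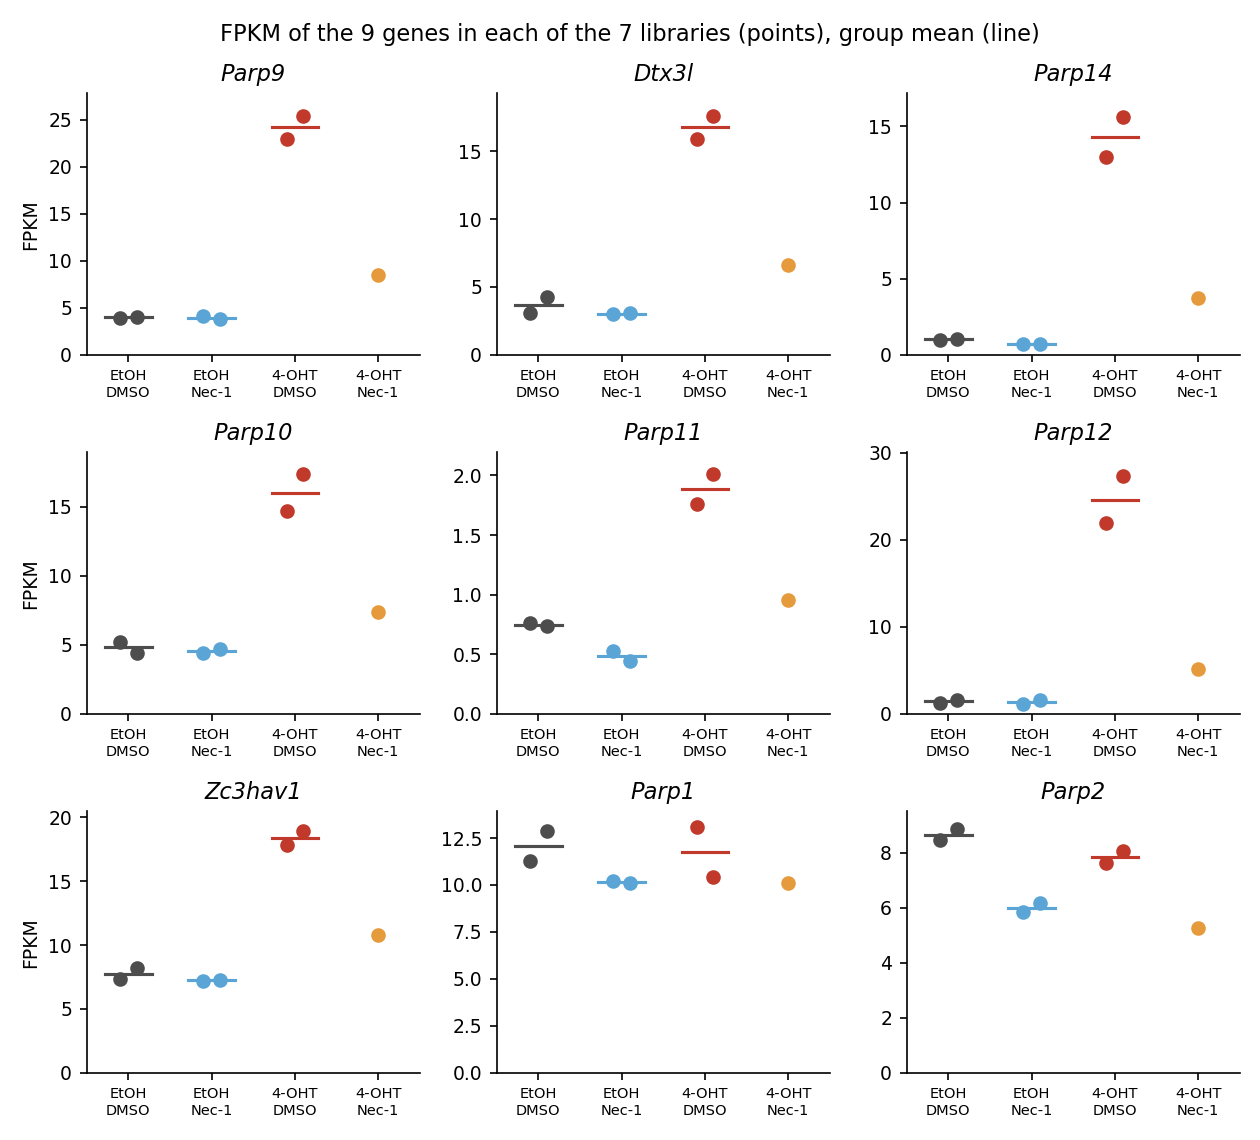
FPKM (vertical axis, linear from 0, with its own range in each panel) of the 9 genes in the 7 libraries, with groups along the horizontal axis. Points are libraries and lines are means of 2 libraries. In the first 7 panels both 4-OHT DMSO points lie above every other point and the single 4-OHT Nec-1 point lies between 4-OHT DMSO and both EtOH groups, which is not so for *Parp1* and *Parp2*. How many of all genes tested have this order was not counted, so it is not read as a result about the members.

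*Parp9* and *Dtx3l* encode partners. PARP9 carries macrodomains that bind ADP-ribose, and DTX3L is the ubiquitin ligase that works in complex with it. *Parp9* (ENSMUSG00000022906) was at 3.89 and 4.06 FPKM in EtOH DMSO and at 23.0 and 25.4 in 4-OHT DMSO, a log2 difference of 2.34 (SE 0.094, limma adjusted p = 0.000275). *Dtx3l* (ENSMUSG00000049502) was at 3.09 and 4.26 FPKM and then at 15.9 and 17.6, a log2 difference of 1.94 (SE 0.14, limma adjusted p = 0.000765). Neither gene's groups overlapped, a pattern that was not counted over all genes tested. The EtOH DMSO libraries of *Dtx3l* were further apart than those of *Parp9*. EtOH DMSO had *Parp9* to *Dtx3l* ratios of FPKM of 1.26 and 0.952, EtOH Nec-1 of 1.37 and 1.24, both 4-OHT DMSO libraries of 1.44 and the 4-OHT Nec-1 library of 1.28, so the highest values lay close to 1 of the EtOH Nec-1 values.

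*Parp14* encodes a large macrodomain PARP known as a coactivator of STAT6. It had the lowest level of the chromosome 16 genes in EtOH DMSO, 1.00 and 1.06 FPKM, and reached 13.0 and 15.6 FPKM in 4-OHT DMSO. The ratio of means was 13.9 and the log2 difference 2.91 (SE 0.12, limma adjusted p = 0.000275). The 3 neighbours thus differed in size, with *Parp14* at 13.9-fold, *Parp9* at 6.09-fold and *Dtx3l* at 4.57-fold.

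*Parp12* and *Zc3hav1* encode the members with CCCH zinc fingers, which bind RNA. ZC3HAV1, also called ZAP, recognises viral RNA rich in CpG and directs its decay without catalysis of its own, and PARP12 transfers single ADP-ribose units. *Parp12* went from 1.29 and 1.61 FPKM to 21.9 and 27.3, a log2 difference of 3.38 (SE 0.16, limma adjusted p = 0.000356), the largest of the 9. *Zc3hav1* was already at 7.31 and 8.17 FPKM in EtOH DMSO and at 17.8 and 18.9 in 4-OHT DMSO, a log2 difference of 1.14 (SE 0.090, limma adjusted p = 0.000912). The pair thus began at unlike levels, with *Zc3hav1* the higher, and ended with *Parp12* the higher, at means of 24.6 against 18.3 FPKM.

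*Parp10* and *Parp11* encode further transferases of single units. *Parp10* had 5.21 and 4.42 FPKM in EtOH DMSO and 14.7 and 17.4 in 4-OHT DMSO, a log2 difference of 1.55 (SE 0.12, limma adjusted p = 0.000892). *Parp11* was the lowest of the members, at 0.760 and 0.733 FPKM in EtOH DMSO and 1.76 and 2.01 in 4-OHT DMSO. Its ratio of means was 2.52, close to that of *Zc3hav1*, but its log2 difference was 0.72 (SE 0.12, limma adjusted p = 0.00781), because the added 1 FPKM shrinks differences of low genes.

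*Parp1* was at 11.3 and 12.9 FPKM in EtOH DMSO and at 13.1 and 10.4 in 4-OHT DMSO. Its groups overlapped, and the log2 difference of -0.046 had a 95% interval from -0.37 to 0.28 (limma adjusted p = 0.805). *Parp2* was at 8.45 and 8.87 FPKM and then at 7.62 and 8.06, both lower without overlap, a pattern not counted over all genes tested. The log2 difference of *Parp2*, -0.13, had an interval from -0.34 to 0.089 (limma adjusted p = 0.283). Centring the libraries on their medians, which moved the median of all genes from 0.077 to -0.080, brought *Parp2* to -0.28 (adjusted p = 0.0349), and scaling by the upper quartile brought it to -0.27 (adjusted p = 0.0446). The 7 interferon-linked genes were called higher under both scalings. The intervals of *Parp1* and *Parp2* leave out a rise as large as the 1.14 of *Zc3hav1*. Among the interferon-linked genes, *Zc3hav1* had the smallest ratio of means, 2.37. The lower log2 difference of *Parp11*, 0.72, is not used here, since its entry to the test rested on the group where it was high.

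**Figure D2:**
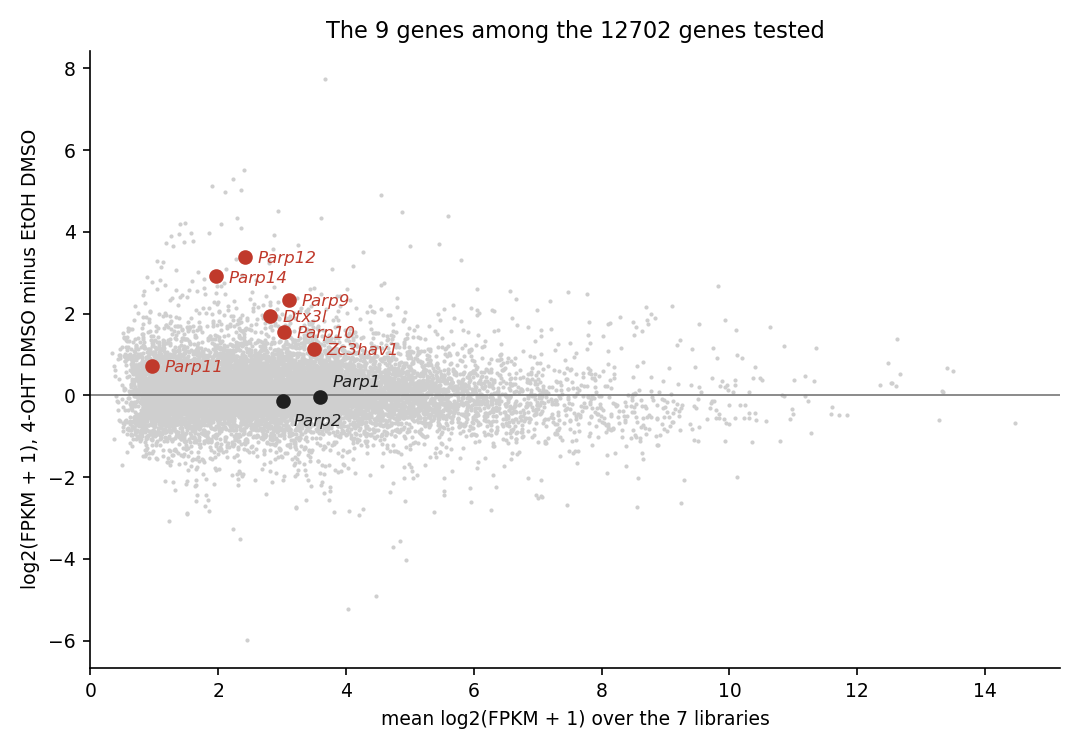
Difference of mean log2(FPKM + 1) between 4-OHT DMSO and EtOH DMSO (vertical axis) against the mean over the 7 libraries (horizontal axis) for the 12702 genes tested (grey points). The 7 interferon-linked genes (red) lie between 0.72 and 3.38 above 0, and *Parp1* and *Parp2* (black) lie near 0, at -0.046 and -0.13.

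The makeup of the PARP family shifted with these genes. Over its 16 genes, FPKM summed to 78.4 and 84.2 in EtOH DMSO and to 156 and 170 in 4-OHT DMSO. The 6 interferon-linked PARPs held 24.9% and 23.8% of that sum in EtOH DMSO and 59.2% and 62.5% in 4-OHT DMSO, while *Parp1* and *Parp2* together held 25.2% and 25.9% and then 13.3% and 10.8%. The 8 other family genes summed to 39.2 and 42.4 FPKM and to 42.8 and 45.4, so the larger family sum lay almost wholly in the interferon-linked genes.

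The order of the members changed as well. In EtOH DMSO, *Parp1* (mean 12.1 FPKM) was followed by *Parp2*, *Zc3hav1*, *Parp10*, *Parp9*, *Dtx3l*, *Parp12*, *Parp14* and *Parp11* (0.746 FPKM), and only *Parp9* and *Dtx3l* overlapped as neighbours. In 4-OHT DMSO, *Parp12* (24.6 FPKM) and *Parp9* (24.2 FPKM) led and could not be told apart, followed by *Zc3hav1*, by *Dtx3l*, *Parp10*, *Parp14* and *Parp1*, each overlapping with the next, and then by *Parp2* and *Parp11*. In EtOH Nec-1, *Parp1* (10.1 FPKM) again led, followed by *Zc3hav1*, *Parp2*, *Parp10*, *Parp9*, *Dtx3l*, *Parp12*, *Parp14* and *Parp11* (0.482 FPKM), none overlapping with its neighbour. In the single 4-OHT Nec-1 library *Zc3hav1* (10.8 FPKM) and *Parp1* (10.1 FPKM) led.

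**Figure D3:**
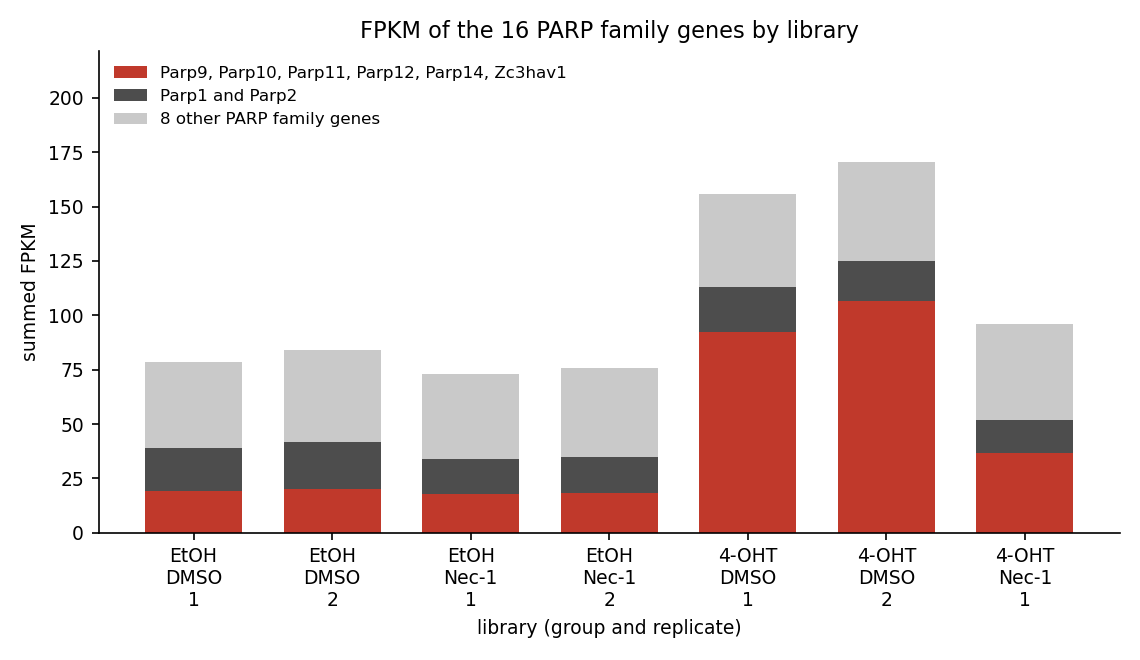
Summed FPKM (vertical axis, from 0) of the 16 PARP family genes in each library, stacked as the 6 interferon-linked PARPs (red), *Parp1* with *Parp2* (dark grey) and the 8 other genes (light grey). The red part makes up 59.2% and 62.5% of the bar in 4-OHT DMSO, 38.0% in 4-OHT Nec-1 and 23.8% to 24.9% in the EtOH libraries, while the light part stays between 38.8 and 45.4 FPKM.

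The second comparison asked whether Nec-1 moved these genes in EtOH organoids. None of the 9 was called in EtOH Nec-1 against EtOH DMSO (limma adjusted p from 0.161 to 0.983). Of all genes tested, 0.173% were called higher and 0.0472% lower, 28 in all, whereas 1689 had an unadjusted p under 0.05. The median log2 difference was -0.087 for the 7 interferon-linked genes and -0.094 for all genes tested. *Parp9* was at 4.11 and 3.78 FPKM in EtOH Nec-1, and its interval for the log2 difference ran from -0.25 to 0.23. *Parp12* was at 1.09 and 1.54 FPKM with an interval from -0.49 to 0.32, *Zc3hav1* at 7.21 and 7.25 FPKM with one from -0.31 to 0.14, and *Parp10* at 4.41 and 4.68 FPKM with one from -0.37 to 0.24. The lowest estimate among the 9 was that of *Parp2*, at 5.83 and 6.17 FPKM against 8.45 and 8.87, a log2 difference of -0.46 with an unadjusted interval from -0.68 to -0.25 (limma adjusted p = 0.161). *Parp14* (0.709 and 0.717 FPKM), *Parp11* (0.524 and 0.439 FPKM), *Dtx3l* (3.00 and 3.06 FPKM) and *Parp1* (10.2 and 10.1 FPKM) were also below both EtOH DMSO libraries. Their log2 differences of -0.25, -0.24, -0.20 and -0.23 did not pass the test. *Zc3hav1* was below both as well, with -0.085. How many of all genes tested lay below both was not counted, so these positions are not read as a result about the members.

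The third comparison set the single 4-OHT Nec-1 library against the 4-OHT DMSO libraries. It has no replicate check and is given without a p-value, and each value is a difference of log2(FPKM + 1). All 9 members were below both 4-OHT DMSO libraries, as were 49.3% of all genes tested. *Parp9*, *Dtx3l*, *Parp14* and *Parp12* were at least 1 log2 unit below each library, as were 1.15% of all genes. The 4-OHT DMSO libraries are the same as in the first comparison.

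*Parp12* stood at 5.14 FPKM with Nec-1, 20.9% of the 4-OHT DMSO mean and 2.05 log2 units below it (a difference of -2.05). *Parp14* stood at 3.76 FPKM (26.2% of the mean, -1.68), *Parp9* at 8.50 FPKM (35.1%, -1.41) and *Dtx3l* at 6.63 FPKM (39.5%, -1.22). *Parp10*, at 7.41 FPKM and 46.1%, was 0.90 units below one library (-0.90) and 1.13 below the other (-1.13) and thus missed the fold rule. *Parp11* stood at 0.951 FPKM (50.5%, -0.56) and *Zc3hav1* at 10.8 FPKM (59.1%, -0.71). *Parp1*, at 10.1 FPKM (86.4%, -0.19), was just 0.033 units below the lower DMSO library (-0.033), and *Parp2* was at 5.25 FPKM (67.0%, -0.50). The median of all genes was -0.081.

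The fourth comparison set the same library against EtOH Nec-1. The 7 interferon-linked genes were above both EtOH Nec-1 libraries, as were 50.4% of all genes tested, and *Parp14* (1.47) and *Parp12* (1.42) were so by at least 1 log2 unit, as were 4.09% of all genes. The other differences were 0.94 for *Parp9*, 0.92 for *Dtx3l*, 0.60 for *Parp10*, 0.52 for *Zc3hav1* and 0.40 for *Parp11*, beside a median of 0.076 for all genes. *Parp1* differed by 0.00085, between the 2 EtOH Nec-1 libraries, and *Parp2* by -0.16, below both. The levels of the 7 genes with Nec-1 therefore remained between those of 4-OHT DMSO and of EtOH Nec-1, at 43.2 summed FPKM against 108 and 124, and 21.0 and 21.5.

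Whether the difference with Nec-1 was unlike in 4-OHT and EtOH organoids was tested as an interaction, in which the single 4-OHT Nec-1 library is assumed to vary like the other groups. None of the 9 members passed after adjustment over all genes. The lowest limma adjusted p was 0.0708 for *Parp9* (-1.40, 95% interval from -1.77 to -1.02), and *Parp12* (-1.96, from -2.61 to -1.32) and *Parp14* (-1.44, from -1.91 to -0.97) had adjusted p = 0.101 each. The unadjusted intervals of *Dtx3l* (-1.02, from -1.58 to -0.45), *Parp10* (-0.95, from -1.43 to -0.47) and *Zc3hav1* (-0.62, from -0.98 to -0.27) also left out 0, that of *Parp11* (-0.32, from -0.81 to 0.16) did not, and all 4 had adjusted p of 0.231 to 0.737. *Parp1* (0.046, from -0.47 to 0.56) and *Parp2* (-0.036, from -0.38 to 0.31) lay around 0. Of all genes, 0.0394% were called lower and 0.0157% higher by this test, 7 in all, and 1059 had an unadjusted p under 0.05. Without the first 4-OHT DMSO library, *Parp9* (-1.46, adjusted p = 0.022), *Parp14* (-1.56, adjusted p = 0.0255) and *Parp12* (-2.12, adjusted p = 0.0255) passed, and 337 genes were called.

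**Figure D4:**
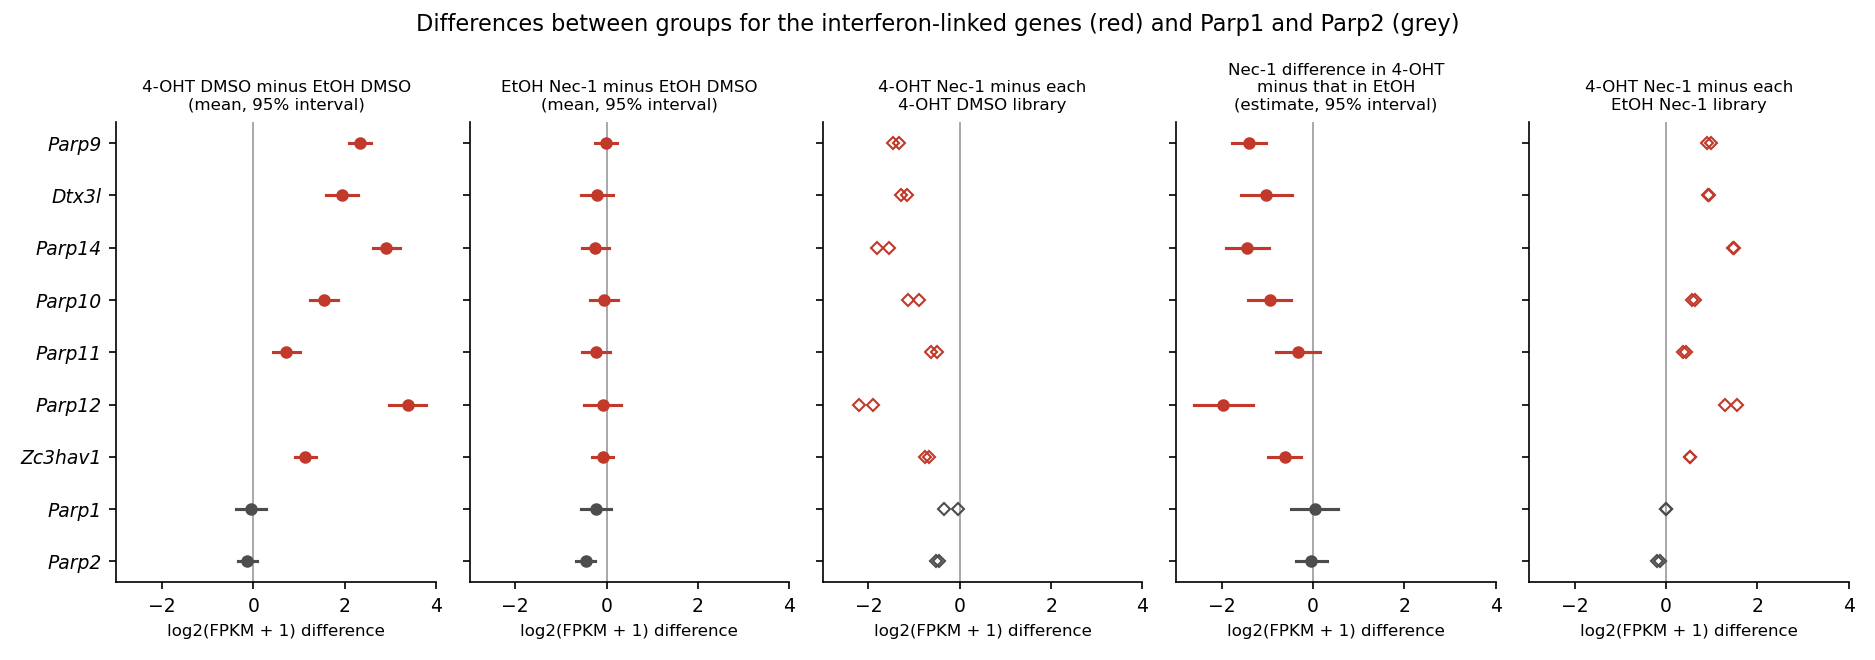
Differences of log2(FPKM + 1) (horizontal axes) for the 9 genes (rows) in 5 comparisons. Filled points with bars are limma estimates with unadjusted 95% intervals, and open diamonds are the single 4-OHT Nec-1 library minus each of 2 libraries. In the first panel the 7 interferon-linked genes (red) lie to the right of 0 and in the third to its left, while *Parp1* and *Parp2* (grey) lie at or near 0 except for the Nec-1 values of *Parp2*.

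The interferon pathway was measured beside its targets. *Ifnb1*, a type I interferon gene, and *Ifnl2* and *Ifnl3*, type III interferon genes, were listed at 0 in all 7 libraries. *Ifng* was at 0 in all but 1, where it was 0.0307 FPKM. Other type I interferon genes were not looked up. Of 6 receptor genes tested, 3 were called higher and 1 lower in 4-OHT DMSO, beside 24.5% and 16.7% of all genes tested. *Ifngr1* was higher by 0.97 on the log2 scale (limma adjusted p = 0.0113), *Ifnar2* by 0.79 (adjusted p = 0.00801) and *Ifnlr1* by 0.55 (adjusted p = 0.0276), whose call was lost under both scalings. *Ifngr2* fell by 0.56, and *Ifnar1*, with 0.039, moved least. Of 8 signalling genes, 5 were called higher and 1 lower, or 4 and 1 under both scalings, beside the same shares of all genes. *Irf7*, which amplifies interferon production, was at 1.85 and 1.86 FPKM in EtOH DMSO and at 36.0 and 50.2 in 4-OHT DMSO (log2 difference 3.93, adjusted p = 0.000321). *Stat2* went from 2.42 and 4.86 FPKM to 22.7 and 19.0 (2.28, adjusted p = 0.00241) and *Irf9*, its DNA-binding partner, from 1.66 and 1.85 to 7.72 and 8.15 (1.70, adjusted p = 0.00072). The gene called lower was *Jak2* (-0.40, adjusted p = 0.0219), whose call was lost in 4 of 13 alternatives, and *Jak1* moved least (-0.081). With Nec-1, *Irf7* stood at 8.74 and *Stat2* at 10.4 FPKM, each below both 4-OHT DMSO libraries. *Irf9*, at 8.56 FPKM, was above both.

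Of the other PARP family genes, 2 of 7 tested were called higher and none lower, beside 24.5% and 16.7% of all genes. *Parp3*, a nuclear transferase of single units, was higher by 0.85 on the log2 scale (limma adjusted p = 0.0073) and *Parp4*, the vault PARP, by 0.53 (adjusted p = 0.0132), and *Parp6* moved least (0.014). Without the first EtOH DMSO library or without the second 4-OHT DMSO library, the call of *Parp4* was lost. Centring on medians added 2 calls lower, the tankyrases *Tnks* (-0.40, adjusted p = 0.0278) and *Tnks2* (-0.38, adjusted p = 0.0157), of which upper quartile scaling called *Tnks2*. Calls lower among all genes tested went from 2120 to 3187 with centring and to 2976 with upper quartile scaling. *Parp8* did not reach the filter, at 0.0440 and 0.0104 FPKM in EtOH DMSO and 0.948 and 0.483 in 4-OHT DMSO. Of 3 other Deltex ligases, 1 was called, *Dtx3*, higher by 0.73 (adjusted p = 0.0111), and *Dtx4* moved least (0.20).

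Of 11 tested enzymes that remove or read ADP-ribose, 2 were called higher and 2 lower, shares near those of all genes (24.5% and 16.7%), and under both scalings none was higher and 3 were lower. *Macrod1*, a macrodomain hydrolase of single units known from mitochondria, was at 37.2 and 38.2 FPKM in EtOH DMSO and at 9.70 and 11.6 in 4-OHT DMSO, and fell by 1.74 on the log2 scale (limma adjusted p = 0.00072). *Oard1*, another such hydrolase, fell by 0.88 (adjusted p = 0.00298). *Parg*, which degrades chains, was higher by 0.39 (adjusted p = 0.0468) and *Adprh* by 0.30 (adjusted p = 0.0334), and both calls were lost under both scalings. *H2afy*, the older symbol of a macrodomain histone gene, moved least (0.003). Of 7 tested genes of NAD supply and use, 3 were called lower and none higher, beside 16.7% and 24.5% of all genes. *Naprt*, which feeds nicotinic acid into NAD, fell by 1.16 (adjusted p = 0.00254), the NAD-consuming *Cd38* by 0.55 (adjusted p = 0.0061) and *Nampt*, the rate-limiting enzyme of NAD salvage, by 0.36 (adjusted p = 0.0357), the last with its call lost in 6 of 13 alternatives. *Nmrk1* moved least (-0.035).

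Of 10 tested cofactors and relatives of ZAP, 4 were called higher and none lower, beside 24.5% and 16.7% of all genes. Median centring added 1 lower, *Exosc7*, while calls lower among all genes tested went from 2120 to 3187. *Trim25*, the ubiquitin ligase that ZAP needs, was at 4.20 and 6.69 FPKM in EtOH DMSO and 53.4 and 58.2 in 4-OHT DMSO (log2 difference 3.17, SE 0.42, limma adjusted p = 0.00375). Its EtOH Nec-1 libraries were far apart, at 5.63 and 14.8 FPKM, and 4-OHT Nec-1 was at 32.1. *N4bp1*, an RNA nuclease gene, was higher by 1.03 (adjusted p = 0.00296) and *Dcp2*, the decapping enzyme, by 0.66 (adjusted p = 0.0149), a call lost without the filter on low values. *Khnyn*, the nuclease partner of ZAP, moved least, with 0.069. None of 9 partners of *Parp1* and *Parp2* in repair of single-strand breaks was called in this comparison or in EtOH Nec-1 against EtOH DMSO. Over all these lists, no gene was called in EtOH Nec-1 against EtOH DMSO or by the interaction.

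Genes whose pattern over the 7 libraries was most like a member's were ranked by Pearson's r of log2(FPKM + 1), as a description, since the libraries fall into groups and share their normalization. Near *Parp9* were *Oas3* (0.9991), *Zmynd15*, *Eif2ak2*, *H2-D1* and *Cxcl10*, near *Parp14* *Cxcl11* (0.9992), *Pnpt1*, *H2-D1* and *Xaf1*, and near *Zc3hav1* *Dtx3l* (0.9991), *Eif2ak2*, *Rnf213* and *Parp14*. *Parp10* was followed by *Irgm2* (0.9966), *Cmpk2*, *Slc4a1ap*, *Dhx58* and *Defa31*, a defensin of Paneth cells with close copies whose reads may be shared. Between 49 and 71 genes had an r over 0.99 with each of these 4 members. For *Parp1* none did, and the nearest were *Atpaf2* (0.9841) and *Cdc45*, *Cbx2*, *Mcm7* and *Spidr*, with replication genes among them. Among the 7 interferon-linked members the pairwise r was 0.967 to 0.999, and with *Parp1* or *Parp2* it was 0.155 to 0.362.

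Genes next to the members did not all share the difference between the DMSO groups. In that comparison 24.5% of all genes tested were called higher and 16.7% lower. *Hspbap1*, the coding gene before *Parp14*, was higher by 0.88 on the log2 scale (limma adjusted p = 0.00437), *Plec* before *Parp10* by 1.12 (adjusted p = 0.0077) and *Cracr2a* after *Parp11* by 0.72 (adjusted p = 0.0165). *Grina* after *Parp10* (-0.056), *Lin9* after *Parp1* (0.20) and *Tep1* after *Parp2* (-0.36) were not called. Nor were the noncoding *Rpph1* before *Parp2* (1.35, adjusted p = 0.113) and the pseudogene *Rpl30-ps1* after *Zc3hav1* (0.58, adjusted p = 0.288). *Kpna1*, after *Parp9*, was at 2.51 FPKM in the second EtOH DMSO library and at 9.27 to 10.5 in the other 6, so its difference of 0.80 (adjusted p = 0.242) rested on that library. *Tbxas1* before *Parp12* and *Zc3hav1l*, a gene related to *Zc3hav1* that lies before it, stayed below 1 FPKM in every library. With Nec-1, *Plec* (10.9 FPKM against 10.8 and 11.4 in 4-OHT DMSO) and *Cracr2a* (7.15 against 6.39 and 7.69) lay between the 4-OHT DMSO libraries, and *Hspbap1* (2.34 against 2.98 and 2.42) lay below both.

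Markers of epithelial cell types moved in the same comparison as the interferon-linked PARPs. All 5 Paneth markers (summed FPKM 6970 and 7650 in EtOH DMSO, 18100 and 18600 in 4-OHT DMSO, 13800 in 4-OHT Nec-1), all 5 goblet markers and all 5 enteroendocrine markers were called higher. Of the goblet markers, 3 were called under both scalings. Of 5 stem cell markers, 3 were called lower, and of 6 enterocyte markers, 3 were higher and 2 lower. Among all genes tested, 24.5% were called higher and 16.7% lower. In 4-OHT Nec-1 the goblet markers summed to 1670 FPKM against 1860 and 2060 in 4-OHT DMSO, the enteroendocrine markers to 723 against 791 and 940, and the interferon-linked members to 43.2 against 108 and 124. The 7 immune genes summed to 3.44 to 3.56 FPKM in EtOH DMSO, 6.99 to 9.07 in 4-OHT DMSO and, in the library with 4-OHT and Nec-1, 10.2. *Cd68*, a lysosomal gene, was the immune-list gene called higher (1.73, limma adjusted p = 0.00689), and the defining leukocyte gene *Ptprc* remained near 0. The part of cell type shares in the differences of the PARP genes was not tested.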

How the data were processed

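RNA was measured in 7 bulk libraries of organoids, grouped by the titles of the libraries. The authors deposited FPKM per Ensembl gene. HISAT2 2.1.0, StringTie 1.3.3b and mm10 stand in the submitters' processing notes without roles, and the annotation is not given in the sources used here. A table with 3 columns repeated 2 of the other tables, and 0 columns were left unmapped. FPKM removes depth and gene length, so the precision behind low values cannot be read from it. The spacing of low values put relative depth at 0.853 to 1.04 of the first EtOH DMSO library. In each other library this rested on the most common ratio, held by 38 to 93 of 645 to 1092 low genes, so it is a rough estimate.

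Of 54838 identifiers, 54723 matched a symbol through a GRCm38.p6 RefSeq table, which also gave positions and promoters. log2(FPKM + 1) was fitted with limma 3.58.1 (R 4.3.3, mean-variance trend, 1 mean per group, 3 residual degrees of freedom) over the 12702 genes with 1 FPKM or more in 2 or more libraries, with Benjamini-Hochberg adjustment over all of them. Intervals are 95% and unadjusted, and errors are limma standard errors. The single 4-OHT Nec-1 library was compared by the fold rule of 1 log2 unit against each library. The fit was tested on simulated data. Tables were read in Python 3.11.15 (pandas 2.3.3, numpy 2.4.6) and plotted in matplotlib 3.10.9.

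The named genes are the 9 members, for each list up to 3 called genes with the largest change and the one with the smallest, genes from the 5 most like each of 5 members, and the nearest annotated genes. The members and lists were chosen with earlier results of these data known. The alternatives were other pseudocounts (0.25 and 0.1), filters and scalings, no trend, the replicate number as a block, only the 4 libraries of a comparison, an added fold threshold and each library left out. ATF3 CUT&Tag samples (2) were not analysed here. Some items are not reported here.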

Additional observations from a re-analysis of the deposited data

How the results depend on the processing

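The 7 interferon-linked genes were called higher in 4-OHT DMSO against EtOH DMSO under every alternative that could include them, except that an added fold threshold of 1 log2 unit dropped *Parp11* (0.72) and brought all calls from 5237 to 1319. Calls for higher genes made up 59.5% of all calls in the main result, 41.0% after median centring and 42.9% after upper quartile scaling. *Parp11* and *Parp14* left the test when 1 FPKM was required in every library. *Parp11* reached 1 FPKM only in 4-OHT DMSO, and the filter was not applied again when libraries were left out. Its calls are therefore not counted as support. *Parp1* ranged from -0.20 to 0.11 when libraries were left out.

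For EtOH Nec-1 against EtOH DMSO no member was called under any alternative. Uncalled estimates turned positive after median centring for *Parp9* (0.090), *Parp10* (0.032), *Parp12* (0.012) and *Zc3hav1* (0.014), and after upper quartile scaling for *Parp9* (0.078), *Parp10* (0.022) and *Zc3hav1* (0.010). With libraries left out they ran from -0.058 to 0.039 for *Parp9*, from -0.17 to 0.032 for *Parp10* and from -0.23 to 0.054 for *Parp12*. All calls, 28 in the main result, were 8 without a filter, 43 after upper quartile scaling, 79 with only the 4 libraries fitted, and 9 to 14 with a library left out.

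By the interaction, 7 genes and 0 members were called. Without a filter these were 219 and 1 (*Parp9*, adjusted p = 0.0377), and with 1 FPKM in every library 3 genes. Leaving out a library gave 1 to 337 genes and 0 to 3 members, and moved *Parp1* from -0.11 to 0.20. The highest counts came when 4-OHT DMSO 1 was left out, and leaving out 4-OHT DMSO 2 gave 40 genes and 0 members.

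For 4-OHT Nec-1 against 4-OHT DMSO, 146 genes met the fold rule in the main result, 249 and 288 with pseudocounts of 0.25 and 0.1, 68 with 1 FPKM in every library, and 244 to 492 when a 4-OHT DMSO library was left out. The members that met the rule also depended on the setting. *Parp10* met it when 4-OHT DMSO 1 was left out (-1.13), and *Parp14* left the test with 1 FPKM in every library. A limma contrast gives the single library the spread of the other groups, an assumption that 1 library cannot check. It called 130 genes lower, with 5 members among them (*Parp9*, *Dtx3l*, *Parp14*, *Parp10* and *Parp12*). Against EtOH Nec-1, 519 genes and 2 members met the rule, 849 and 4 with a pseudocount of 0.25, 955 and 4 with 0.1, and 1 member with 1 FPKM in every library. Under the same assumption the limma contrast called 1771 genes and 6 members higher, all but *Parp11* of the interferon-linked ones. The causes of these shifts were not tested.

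Deviations of same-numbered replicates from their group means hardly correlated over all genes tested (r of -0.04 to 0.01 between groups). This check cannot exclude that same-numbered libraries shared a culture or preparation, so whether the numbers pair the samples is not known. The fit with a replicate block called 4697 genes and 7 members in 4-OHT DMSO against EtOH DMSO, 19 and 0 in EtOH Nec-1 against EtOH DMSO, and 4 and 0 by the interaction. Having 1 library for 4-OHT Nec-1 limits every value with Nec-1 in 4-OHT organoids.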
